A study of Homo sapiens with 3 samples.

Results

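Of the 54116 H3K9me3 regions called in Jurkat cells, 481 lay on chromosome 19 and named genes without naming a zinc finger gene. These are the regions to which the deposited list assigns at least 1 gene and no gene symbol that begins with ZNF, ZFP, ZSCAN or ZIM and a digit. The untreated control library held 244 of them and the CXCL12 library 237. Chromosome 19 held 1617 regions in all, of which 655 named a zinc finger gene and another 481 named no gene at all. The choice is by gene symbol and not by position, so some of the regions lie within or beside the zinc finger gene clusters.

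Jurkat cells are an established leukaemic line of T lymphoblasts. Both groups had been kept in serum-free medium for 90 min, after which CXCL12, a chemokine that signals through the receptor CXCR4, was given at 100 ng/ml for 15 min to one culture and withheld from the control. Chromatin with trimethylated lysine 9 of histone H3 (H3K9me3) was immunoprecipitated and sequenced, with 1 library per group, so no difference between the conditions has a replicate check and no p-value is given. How deeply each library was sequenced is unknown, and the input library was not analysed here.

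H3K9me3 marks silent chromatin and is bound by heterochromatin protein 1. It is laid down by methyltransferases such as SETDB1, which are brought to DNA by KRAB zinc finger proteins with the corepressor TRIM28, and by SUV39H1 and SUV39H2. Human chromosome 19 is rich in genes and in tandem gene families that arose by duplication, among them receptors of immune cells, olfactory receptors, cytochrome P450 enzymes and a primate microRNA cluster that is active in placenta.

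The sequences that follow come from genes whose starts lay under the mark in both libraries or from the microRNA cluster, and they are credited to RefSeq on GRCh38.p14. The regions themselves are given on hg19, and sequence was therefore taken by gene and not by region coordinate. The microRNA cluster was the largest group of genes in these regions, with 46 microRNA genes in 2 neighbouring loci. Its mature RNAs were grouped by seed, bases 2 to 8 from the 5′ end, which are in capitals. Of the 48 microRNA genes named by the regions, 47 matched a RefSeq entry, and their 67 mature names carried 36 different seeds. The seed of most shared use, UCUAGAG, was found in 11 mature names, and AAGUGCU in 5. The RNAs below show how closely related members of the cluster are.
hsa-miR-520a-3p: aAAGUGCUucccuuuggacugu
hsa-miR-520c-3p: aAAGUGCUuccuuuuagagggu
hsa-miR-520d-3p: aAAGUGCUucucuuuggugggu
hsa-miR-519a-3p: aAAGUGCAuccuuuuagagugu
hsa-miR-519c-3p: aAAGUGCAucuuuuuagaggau
hsa-miR-519d-3p: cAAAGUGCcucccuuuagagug
hsa-miR-526b-3p: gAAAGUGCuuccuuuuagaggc
hsa-miR-519a-5p: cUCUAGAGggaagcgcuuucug
hsa-miR-522-5p: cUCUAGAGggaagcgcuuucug
hsa-miR-516a-5p: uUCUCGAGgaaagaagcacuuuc

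A gene start is placed here from the position of a region's highest point and the listed distance to that start. Starts could be placed for 274 of the 283 gene symbols named by these regions, and 71 starts lay inside one of the regions in at least 1 library. Regions of this choice covered 21 starts in both libraries, of which 11 belonged to protein-coding genes and 4 to microRNA genes. Regions with a zinc finger symbol were not counted. Many more microRNA starts lay in a 77.6 kb control region, and after CXCL12 that DNA fell in a region that also named ZNF331. RefSeq promoters, from 250 bases before to 50 after the annotated start, were found for 7 of the 11 protein-coding genes. The 4 shown differ in CG dinucleotides, the sites of DNA methylation in vertebrates, which are in capitals. The RefSeq start on GRCh38.p14 may not be the start used by the deposited list.
USP29: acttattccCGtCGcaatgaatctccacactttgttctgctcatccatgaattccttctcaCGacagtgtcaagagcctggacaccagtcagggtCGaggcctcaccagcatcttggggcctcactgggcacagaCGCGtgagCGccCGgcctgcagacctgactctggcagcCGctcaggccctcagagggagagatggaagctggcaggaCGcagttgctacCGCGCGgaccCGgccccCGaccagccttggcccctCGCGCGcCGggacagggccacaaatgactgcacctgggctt
OR2Z1: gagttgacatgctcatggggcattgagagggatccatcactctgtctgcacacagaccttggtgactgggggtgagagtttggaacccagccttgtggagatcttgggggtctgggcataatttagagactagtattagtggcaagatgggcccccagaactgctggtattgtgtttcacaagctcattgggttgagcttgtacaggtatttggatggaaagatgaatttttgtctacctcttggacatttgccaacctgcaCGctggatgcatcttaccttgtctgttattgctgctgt
KIR2DL4: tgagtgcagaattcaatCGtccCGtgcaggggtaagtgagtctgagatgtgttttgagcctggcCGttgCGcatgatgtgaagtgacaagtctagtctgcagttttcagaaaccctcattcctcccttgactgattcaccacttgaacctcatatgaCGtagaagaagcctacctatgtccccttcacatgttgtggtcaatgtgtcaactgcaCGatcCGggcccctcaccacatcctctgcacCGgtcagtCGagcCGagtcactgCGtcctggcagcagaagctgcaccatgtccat
SLC7A10: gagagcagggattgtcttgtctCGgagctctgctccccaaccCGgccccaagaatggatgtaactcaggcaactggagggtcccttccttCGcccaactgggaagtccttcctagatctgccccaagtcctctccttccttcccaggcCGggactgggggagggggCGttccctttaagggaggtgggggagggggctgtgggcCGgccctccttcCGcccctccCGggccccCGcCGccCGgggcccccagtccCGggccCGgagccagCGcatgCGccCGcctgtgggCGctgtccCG

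USP29, an imprinted gene next to PEG3, had 19 CG in this window. OR2Z1, an olfactory receptor gene, had 1. KIR2DL4, which encodes a receptor of natural killer cells, had 11. SLC7A10, which encodes an amino acid transporter, had 18. The median over the 7 promoters was 11, beside 21 over 22199 protein-coding promoters in the same table and 21 over the 1262 of chromosome 19 without a zinc finger symbol. All 7 lay below that median, with USP29 the highest at 19. With 7 sequences this is a description of those genes. Over the USP29 start, the region's mean signal was 12.2 for control and 12.7 for the CXCL12 library. It was 6.73 and 8.15 over OR2Z1, 7.66 and 5.47 over KIR2DL4, and 7.63 and 5.04 over SLC7A10.

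Regions with other genes on chromosome 19 were much shorter than those on its zinc finger genes, but they were longer and stronger than the gene-carrying regions of other autosomes. The control members had a median length of 5300 bp and the CXCL12 members one of 5800 bp. Zinc finger regions of the chromosome measured 13600 and 14300 bp at the median, and regions with a gene and no zinc finger symbol on the other autosomes 4200 and 4400 bp. Signal is the authors' mean value over the bins of a region. The median signal was 6.58 in control (95% interval over regions 6.03 to 6.97) and 6.42 after CXCL12 (5.88 to 6.78). On other autosomes it was 5.21 (5.15 to 5.25) and 5.27 (5.23 to 5.32), so the intervals did not meet in either library. Zinc finger regions stood at 7.44 and 7.72. Chromosome 19 regions with no gene measured 6100 and 6000 bp at the median, with signals of 5.81 (5.36 to 6.07) and 5.68 (5.37 to 6.16). Values above those of other autosomes were therefore not particular to members. These intervals cover the spread over regions of 1 library and not the variation between cultures.

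**Figure D1:**
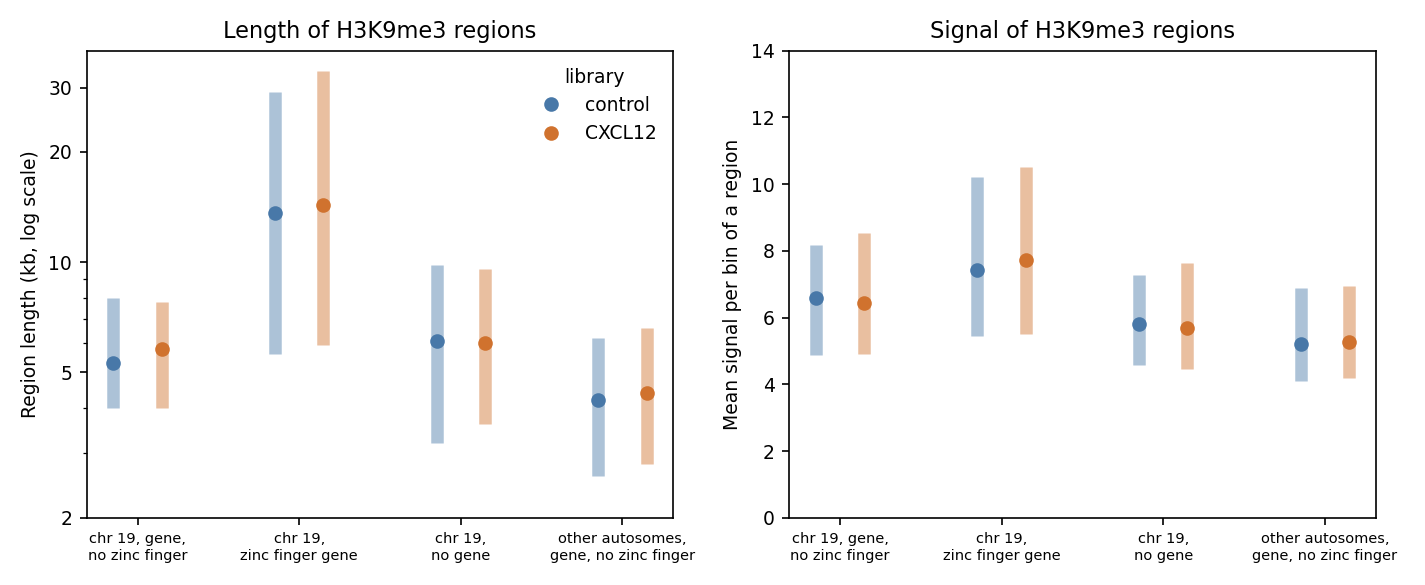
Length (left, kb, log scale) and mean signal per bin (right) of H3K9me3 regions in 4 classes, with control in blue and CXCL12 in orange; points are medians and bars run from the lower to the upper quartile. Chromosome 19 regions with genes outside the zinc finger family have medians of 5300 and 5800 bp, between those of zinc finger regions and those of other autosomes. Regions of the chromosome with no gene have 6100 and 6000 bp.

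At matched length, members had the higher medians below 4 kb and from 4 to 8 kb, and no order was clear in longer regions. Below 4 kb, the 58 members in control had a median signal of 5.59 (4.62 to 6.23) and the 55 after CXCL12 5.63 (4.61 to 6.48). Other autosomes had 4.61 in both libraries there, and chromosome 19 zinc finger regions 4.86 (4.125 to 5.45) and 5.04 (4.45 to 5.61). The intervals of members and zinc finger regions overlapped in that range. Among regions of 4 to 8 kb, the 124 members in control had a median signal of 6.41 (5.85 to 7.20) and the 128 after CXCL12 6.45 (5.77 to 7.06). Regions of that length on other autosomes had 5.47 and 5.54, and chromosome 19 zinc finger regions had 5.54 (5.25 to 5.99) and 5.67 (4.84 to 6.50). From 8 to 20 kb, members had 7.27 (6.56 to 8.86) and 6.81 (5.82 to 8.09), zinc finger regions 7.08 and 7.29, and other autosomes 6.62 and 6.67. At 20 kb or more, members had 8.90 (6.89 to 12.2) and 9.30 (5.52 to 15.9). Zinc finger regions of that length had 10.1 and 10.4, and other autosomes 9.58 and 10.0. In both of these longer ranges the members' intervals held the medians of the zinc finger regions and of other autosomes. Only 12 control and 10 CXCL12 members reached 20 kb, against 131 zinc finger regions in each library. Those long members held 25.2% of the members' covered length in control and 22.7% after CXCL12, whereas long regions held 80.2% and 83.6% on zinc finger genes.

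As the deposited list counts them, promoters and CpG islands were more frequent in members than on other autosomes and less frequent than in zinc finger regions. The list counted a promoter for 36.5% of control members (exact 95% interval 30.4 to 42.9%) and for 32.9% after CXCL12 (27.0 to 39.3%). That count does not require a gene start inside the region. The TMPRSS9 regions were counted in both libraries, although both lay upstream of the gene and did not reach its start. Placed gene starts inside members numbered 66 in control, many of them microRNA starts in a single region, and 26 after CXCL12. The share with a counted promoter was 16.1% and 15.9% on other autosomes and 58.4% and 59.2% on the zinc finger genes. A CpG island was recorded in 15.6% of control and 13.9% of CXCL12 members, beside 5.86% and 5.58% on other autosomes and 31.3% and 32.6% on zinc finger genes. The 38 control members with an island had a median signal of 8.36 (7.55 to 9.46), and the 206 without one 6.12 (5.79 to 6.77). After CXCL12 these medians were 7.85 (6.78 to 9.21) and 6.08 (5.61 to 6.51). Members with an island were thus the stronger ones in both libraries. They were also longer, with medians of 6700 against 5100 bp in control and 7800 against 5300 bp after CXCL12. Whether the difference in signal goes with length was not tested. A region lay inside a gene in 59.4% of control and 62.0% of CXCL12 members, and the rest lay upstream or downstream only.

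Few of the chromosome's other genes were involved. Of 1187 protein-coding genes of chromosome 19 without a zinc finger symbol, 209 (17.6%, 15.5 to 19.9%) were assigned to any H3K9me3 region in either library. On the other autosomes the share was 30.5% of 17391 genes, and among the 264 zinc finger genes of chromosome 19 it was 81.4%. The list assigns neighbouring genes too, so genes that stand close together may share a region. The 283 symbols named by members comprised 196 protein-coding genes, 48 microRNA genes, 15 long non-coding RNAs, 9 pseudogenes and 15 names with no match in RefSeq. A small part of the chosen regions does involve zinc finger genes under older names. HKR1 is now ZNF875, LOC100287226 is ZNF729 and LOC646864 is ZNF723, and together they were named by 17 of the 481 regions.

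Overlapping regions of the 2 libraries, by 1 bp or more, were joined into loci. There were 250 loci with a member region and no zinc finger region, and a further 10 that also held a zinc finger region. In both libraries 198 of the 250 were called, beside 21541 of all 29404 loci of the series. In control alone 22 were called (8.80%, 5.60 to 13.0%), where 12.2% of all 29404 loci of the series were called in control alone. After CXCL12 alone 30 were called (12%, 8.24 to 16.7%), beside 14.6% of all loci. Taken by region, 91.0% of control members (86.7 to 94.3%) and 87.3% of CXCL12 members (82.4 to 91.3%) lay in a locus called in both. That share was 87.7% and 85.8% for gene-carrying regions of other autosomes, and 96.2% and 96.8% for chromosome 19 zinc finger regions. In what follows, a shared locus is one called in both, and where 2 values are given without a library the control comes first. Positions are those of the deposited list, on hg19.

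Receptors of immune cells formed one large group. Many of these genes encode proteins with immunoglobulin-like domains that tune the activity of natural killer and myeloid cells. Of 49 genes of this list annotated on the chromosome, 18 were assigned to a member region. The 18 include LOC100129083, now SIGLEC10-AS1, a long non-coding RNA gene and not a receptor gene. Killer cell receptor genes contributed 7 of 15, SIGLEC genes, which encode sialic acid binding receptors, 5 of 13, and the leukocyte receptors of the LILR family 0 of 11. The strongest locus of the group lay beside SIGLEC10, where the 2 libraries, control first, had mean signals of 10.6 and 12.3. The locus between SIGLEC7 and SIGLEC9 had 7.20 and 5.41, and its called length went from 4.4 kb to 6.4 kb. OSCAR and TARM1, receptors of myeloid cells, shared a locus with 6.88 and 6.42.

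The killer cell receptor genes were called in pieces. Of their 10 loci, 4 were called in both libraries, 3 in control alone, beside 12.2% of all loci, and 3 after CXCL12 alone, beside 14.6%. With 10 loci these counts are a description. At KIR2DL1 a 3.4 kb region was called in control, where the CXCL12 library had 4 regions of 2.4 to 7.6 kb. A control region of 10.2 kb across KIR2DL3 and KIR3DL3, with a mean signal of 4.32, had none over it after CXCL12. Across KIR2DL4 and KIR3DL1, control had 2 regions with 9.4 kb in sum and a mean of 6.75, and the CXCL12 library had a single region of 17.2 kb with a mean of 5.47. The loci of a single library had mean signals between 3.19 and 6.05. These genes are near-identical copies, and the treatment of reads with several matches is not stated in the labels or the file, so the assignment to single KIR genes is uncertain.

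Chemoattractant, adhesion and lectin receptors of blood cells were assigned to member regions in 5 of 13 cases, over 8 loci. All 8 were called in both libraries, beside 21541 of all 29404 loci of the series. With 8 loci this is a description. Upstream of CD209 and CLEC4M, lectins that bind pathogen sugars, the mean signals were 11.4 for control and 12.4 for CXCL12. Within EMR1, an adhesion receptor of macrophages, 3 loci had means between 6.19 and 6.77 in control and between 5.55 and 7.06 after CXCL12. Just downstream of FPR3, a formyl peptide receptor, a 2.0 kb locus had 4.35 and 6.53, while the longer locus beside it had 4.40 and 4.77.

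NLRP genes, several of which encode inflammasome sensors or oocyte proteins, had the highest share of any gene list, with 8 of 9 assigned to a member region. Their 17 loci were weak, and the 12 called in both libraries had median signals of 4.79 (control) and 4.83 (CXCL12). The largest values were 8.17 and 9.24 between GP6 and NLRP2 and 7.90 and 9.07 at NLRP11 and NLRP4. The mean was higher in the CXCL12 library at 9 of the 12 and lower at 3, with a median log2 ratio of 0.18 (-0.15 to 0.27). Over the series the mean was higher at 12283 of the 21541 shared loci, with a median log2 ratio of 0.040. Called length summed to 66.2 kb in control and 80.4 kb after CXCL12, while 3 of the 17 loci were called after CXCL12 alone and 2 in control alone, near the series shares of 14.6% and 12.2%.

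Olfactory receptor genes were named by member regions in 9 of 20 cases, and the vomeronasal receptor genes in 0 of 3. With zinc finger regions counted too, 12 of these 23 genes were assigned to a region. The vomeronasal genes VN1R2 and VN1R4 lay in a shared locus that also named ZNF665 and ZNF677, with means of 9.45 and 9.62. The strongest olfactory receptor gene was OR10H4, where a short region of 3.0 kb in control and 4.0 kb after CXCL12 had a mean of 17.1 and 14.7. OR10H3 had 12.7 and 15.0. Both regions covered the listed start of the gene. The neighbouring OR10H1 and OR10H5 shared a region with a mean of 3.87 that was called after CXCL12 alone, so the mark varied widely within this subfamily. Cytochrome P450 genes of the CYP2 and CYP4F families were named in 5 of 12 cases, and the CYP4F genes lie among the OR10H genes. CYP4F22, which acts in the lipids of the skin barrier, held 3 loci whose strongest had 11.0 and 11.8, and CYP4F11 had 7.64 and 8.85 in its own locus.

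The other families differed in how many genes were named. Of the 1187 protein-coding genes without a zinc finger symbol, 17.6% had any region, zinc finger regions included, and 193 had a member region. The families are small, so their counts are a description. No region of either library was assigned to any of 15 kallikrein genes, 7 genes for gonadotropin beta subunits or 3 lambda interferon genes. Genes of the CEACAM and pregnancy-specific glycoprotein families were named in 8 of 25 cases, and CEACAM21 was the strongest with 10.8 and 11.2. Any region was assigned to 9 of the 25, above the share of 17.6%. Among 42 signalling genes used by T cells and other cells 4 were named, below that share, of which TNFSF9, the ligand of the costimulatory receptor 4-1BB, had 15.4 and 13.9 downstream of the gene. Channels and transporters were named in 12 of 39 cases, and 13 had any region, again above it. At CACNA1A, the pore subunit of a neuronal calcium channel, 6 separate loci were called, 3 of them in both libraries. Over the series, 21541 of all 29404 loci were called in both.

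**Figure D2:**
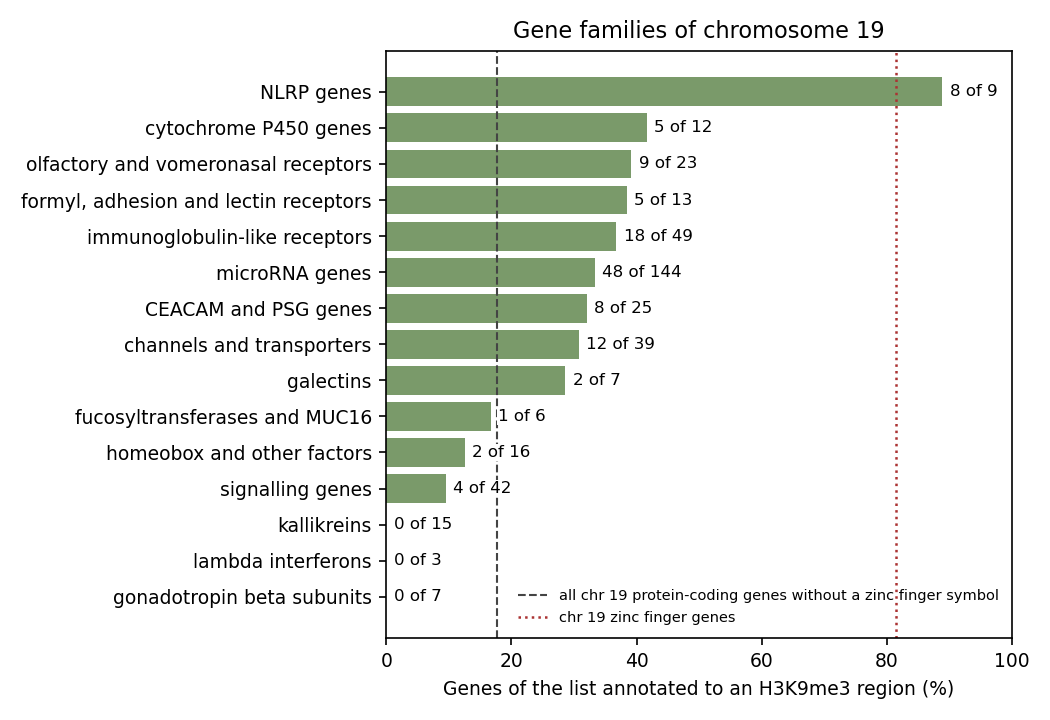
Share of the annotated chromosome 19 genes of 15 gene lists that were assigned to at least 1 region without a zinc finger symbol in either library, in percent, with the counts beside the bars. The dashed line is the share of all protein-coding genes without a zinc finger symbol that had any region (17.6%), the dotted line that of zinc finger genes (81.4%); NLRP genes reached 8 of 9, and 3 lists had none.

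Placental and imprinted loci ranged from heavily to weakly marked. The locus of HERV-V1 and HERV-V2, envelope genes of an endogenous retrovirus that are expressed in placenta, spanned 53518400 to 53552599 on chromosome 19. Its regions measured 34.0 kb in control and 34.2 kb after CXCL12, with mean signals of 17.8 and 19.4. Upstream of USP29, at 57615800 to 57632599, regions of 16.0 and 16.8 kb reached over the start of the gene. The microRNA cluster was marked over long stretches. A locus at 54016800 to 54249599 held 42 microRNA genes and also ZNF331, a zinc finger gene, with 230.2 kb called in control and 231.2 kb after CXCL12. Its mean signal was 12.1 and 12.2. The final stretch of the cluster, at 54256000 to 54274399, had weaker means of 5.60 and 5.55 and named 8 microRNA genes, among them MIR516A1 and MIR519A2, whose mature sequences are among those printed above. These means lay below the median of 6.99 over shared loci. The imprinted locus of PEG3 and MIMT1, which also names the zinc finger gene ZIM2, had 5.59 and 6.90. The 3 loci of pregnancy-specific glycoprotein genes, which are expressed in placenta, had means from 2.87 to 4.92. LGALS16, a placental galectin gene, had 3.84 and 3.98.

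Much of this cluster counted as naming no zinc finger gene in 1 library only. In control a 77.6 kb region named microRNA genes alone, while after CXCL12 the same DNA fell in one region of 213.0 kb that reached ZNF331. The same held for 12 of the 244 control members, which overlapped only regions with a zinc finger symbol after CXCL12, and for 1 of the 237 CXCL12 members. Summed over regions, members covered 1871.8 kb in control and 1799.4 kb after CXCL12, a ratio of 0.961. Summed over loci that hold no zinc finger region, the called length was 1802.4 kb and 1873.2 kb, a ratio of 1.04. With only regions inside a gene, the ratio was 1.08. The direction of this comparison therefore depended on what was summed.

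The strongest loci lay on genes with no family in common, and most were far from any zinc finger region. Between ACER1, a ceramidase gene, and MLLT1, a chromatin reader gene that is fused to KMT2A in some leukaemias, control had a mean of 19.7 and CXCL12 one of 21.3, over 16.0 and 15.6 kb at 6284000 to 6299999. At SHC2, an adaptor gene, and ODF3L2 it was 17.7 and 17.3. FBN3, a fibrillin gene, had 18.1 and 15.8. RYR1, the calcium release channel of skeletal muscle, had 17.2 and 14.2. KDM4B, which encodes a demethylase of this same histone mark, had 15.2 and 15.0 over 10.0 and 10.2 kb inside the gene, at 5093000 to 5103599. Of the 8 strongest loci, the one at HERV-V1 and HERV-V2 lay 1.0 kb from the nearest zinc finger region, and the other 7 lay between 521.2 and 2363.4 kb away.

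Of the 6 longest loci, in contrast, 4 lay within 50 kb of a zinc finger region. Among these 4 is LOC100287226, a zinc finger gene now named ZNF729, with 51.0 and 50.8 kb. LOC100131479, a pseudogene, had 99.0 kb called in control and 103.0 kb after CXCL12, 24.0 kb from the nearest zinc finger region. The locus downstream of LOC100132815 had 80.8 kb in both libraries, 0.8 kb from one. LOC100128139, a long non-coding RNA gene, had 72.2 and 73.2 kb. MUC16, which encodes a large membrane mucin, had 35.2 and 33.8 kb inside the gene with low means of 4.52 and 4.94. Of the 26 shared loci within 50 kb of a zinc finger region, 6 reached 20 kb and the median length was 13600 bp. Of the 113 loci at 500 kb or more, 1 reached 20 kb and the median was 5500 bp. Signal did not follow this pattern, with medians of 7.96 (5.44 to 9.32) near and 7.27 (6.58 to 7.61) far, and 6.35 (5.41 to 6.91) for the 59 loci between. Over the 198 loci, which all come from the same 2 libraries, Spearman's rho between signal and distance was 0.05.

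**Figure D3:**
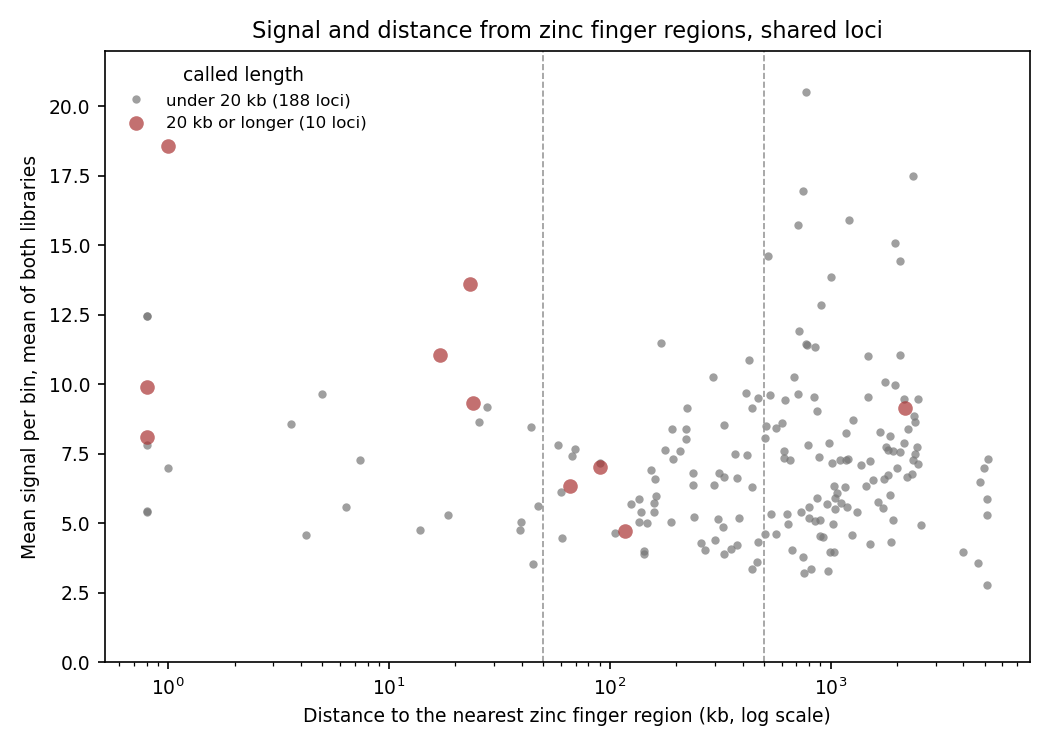
Mean signal per bin (mean of both libraries) against the distance to the nearest chromosome 19 region with a zinc finger symbol (kb, log scale) for the 198 shared loci; larger red points mark loci of 20 kb or more and dashed lines stand at 50 and 500 kb. Long loci gather at short distances, with 6 of 10 below 50 kb, among them LOC100287226 (now ZNF729), while strong loci occur both near and far.

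The mark at these loci was similar in strength in the 2 libraries. The median log2 ratio of mean signal, CXCL12 to control, was 0.042 (0.001 to 0.068) over the 198 shared loci, with quartiles of -0.14 and 0.16, and it was 0.040 over all 21541 shared loci of the series. The CXCL12 library was higher at 114 loci and lower at 84. Of the 198 loci, 0 were at least 2-fold higher after CXCL12 (exact 95% interval up to 1.85%), where 0.116% of all shared loci were. Likewise 0 were at least 2-fold lower, where 0.176% of all shared loci were. At 1.5-fold, 5 were higher (2.53%), beside 2.27% of all shared loci, and 3 were lower (1.52%), beside 1.92%. The 5 lay at INSR, LOC100507353, VSTM2B, the locus of LOC100134317 and LOC100506930, and FPR3, and the 3 at CACNA1A, TDRD12 and SLC7A10. In that order, called lengths of the 5 were 2.6 and 2.2, 5.0 and 2.4, 5.4 and 3.6, 0.4 and 0.2, and 2.0 and 2.0 kb. Those of the 3 were 4.0 and 7.8, 4.0 and 6.0, and 6.8 and 13.0 kb. At 1.5-fold the shares were close to those of the series. By the highest bin of a locus, 13 were at least 1.5-fold higher (6.57%), beside 7.82% of all shared loci, and 2 were lower (1.01%), beside 3.44%.

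**Figure D4:**
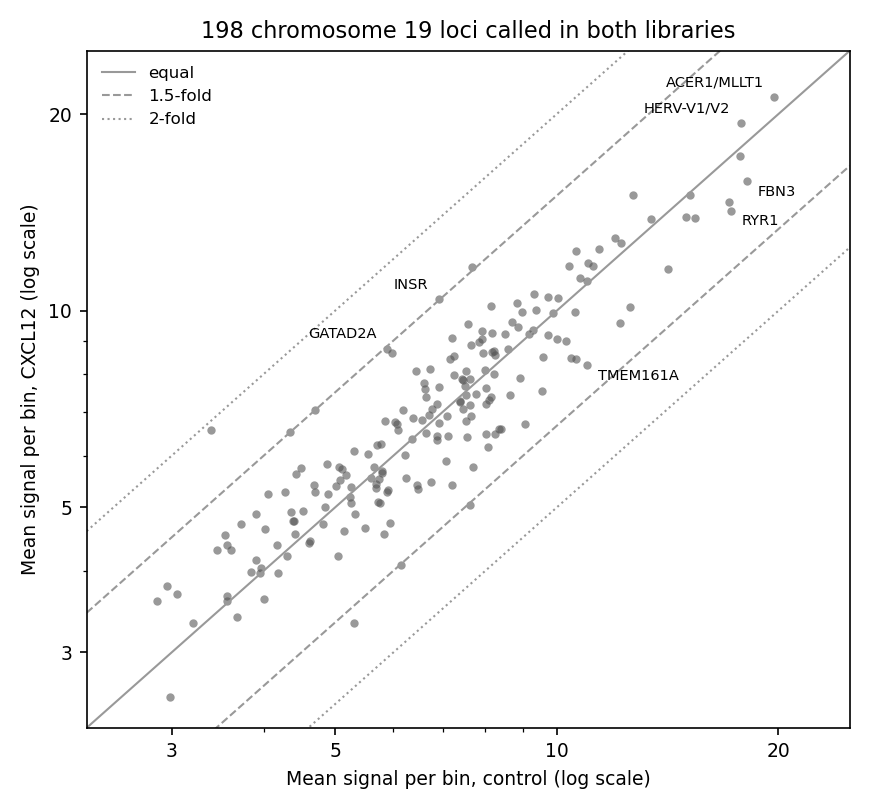
Mean signal per bin of the 198 shared loci in the control (x) and CXCL12 (y) library, both on log scales, with lines at equality, 1.5-fold and 2-fold; 7 loci are labelled. All loci fall within the 2-fold lines, and the strongest locus, at ACER1 and MLLT1, has 19.7 and 21.3.

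As over the whole series, ratios of signal and of called length moved in opposite directions. Called length differed little at the median, with a log2 ratio of 0.043 (0 to 0.082). At least 2-fold longer after CXCL12 were 3 loci (1.52%, 0.31 to 4.36%), at OR7D4, KIR2DL1 and NLRP4, beside 5.55% of all shared loci. At least 2-fold shorter were 2 (1.01%, 0.12 to 3.60%), beside 2.85%. Over the 198 loci, Spearman's rho between the log2 ratios of signal and of length was -0.61, and over all shared loci of the series it was -0.62. Both ratios come from the same regions and are not independent.

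The loci at the ends of the ratio range showed the same relation. Among the loci at or above the median signal, the 8 with the largest ratio of mean signal were shorter after CXCL12 in 7 cases and equal in 1. Inside INSR, the insulin receptor gene, the mean was 6.91 in control and 10.4 after CXCL12, a log2 ratio of 0.59, and the region, at 7124800 to 7127399, measured 2.6 and 2.2 kb. Inside GATAD2A, which encodes a subunit of the NuRD complex, the mean was 5.88 and 8.76 while the region measured 8.6 and 6.4 kb, and the highest bin was 25 and 24. The locus of PTPRH, SYT5 and C19orf51 had 5.97 and 8.63 over 4.0 and 2.4 kb. At PTPRS, a receptor phosphatase gene, the mean was 7.21 and 9.07 and the highest bin 17 and 27. The 8 loci with the smallest ratio were longer after CXCL12 in all 8 cases. TMEM161A had 11.0 and 8.26 over 3.6 and 5.2 kb, and its highest bin was 29 and 31. NCAN, the gene of a brain proteoglycan, had 12.2 and 9.58 over 5.2 and 7.6 kb. The locus of KLF1, an erythroid factor, with DNASE2, GCDH and MAST1, had 9.57 and 7.53 over 3.0 and 4.0 kb, with a highest bin of 18 in both.

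**Figure D5:**
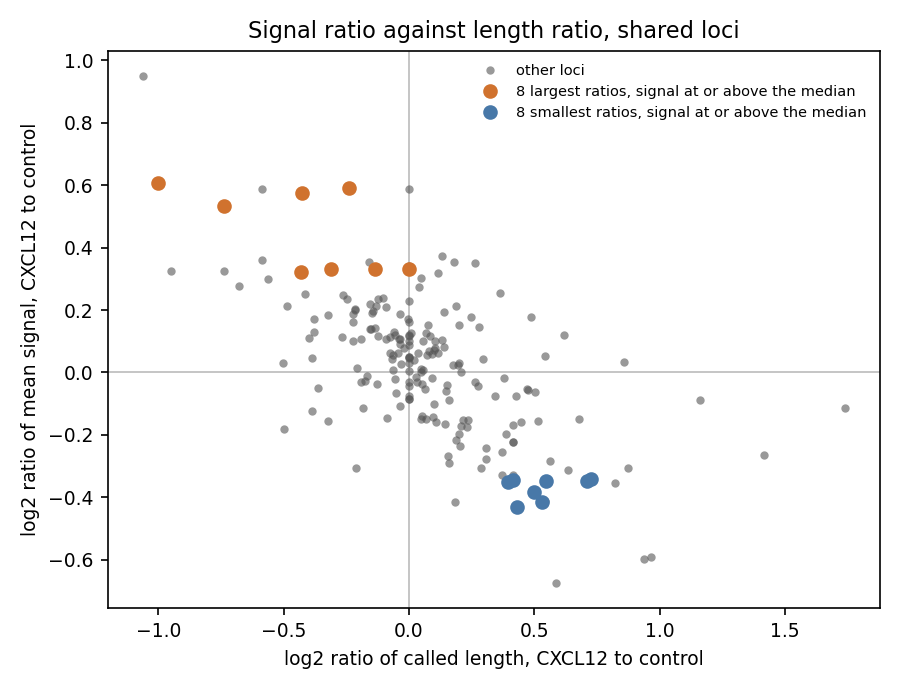
The log2 ratio of mean signal against the log2 ratio of called length, both CXCL12 to control, for the 198 shared loci; orange and blue points are the 8 largest and the 8 smallest signal ratios among loci at or above the median signal. The 8 smallest ratios all lie to the right of 0 in length, and 7 of the 8 largest lie to the left.

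Calls made in only 1 library were shorter and weaker than the shared ones. Those of control alone had a median length of 3600 bp and a median signal of 4.49, those of CXCL12 alone 3900 bp and 4.57, and those called in both 5800 bp and 6.99. The exception in length was a control region of 40.4 kb upstream of LOC100505851, at 24132400 to 24172799, with a mean signal of 8.31 and a highest bin of 45. The nearest CXCL12 region lay 5.6 kb from it. DIRAS1, a Ras family gene, held a control region of 3.8 kb with a mean of 7.49, and the nearest CXCL12 region was 82.8 kb away. After CXCL12 alone the highest mean was 11.3, in a 1.6 kb region inside SHC2 whose highest bin was 40 and which lay 2.6 kb from a control region. A 3.0 kb region at LIG1, the gene of DNA ligase I, and C19orf68 had a mean of 6.44 and lay 99.0 kb from the nearest control region. No signal is listed where nothing was called, so the level at these places in the other library is not known.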

How the data were processed

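H3K9me3 immunoprecipitations from Jurkat cells, 1 control and 1 CXCL12 library, were analysed, grouped by treatment label; the input library was not analysed here. Per the submitters' processing notes, reads were handled with BWA 0.7.12 and SICER 1.1 on the build hg19. Settings, scaling between libraries and any use of the input were not given in the sources used here. Signal was deposited, per the file headers, as the mean over a region's bins and as its highest bin. Starts and lengths moved in steps of 200 bp. Whether positions count from 0 or 1 is not given either. No read numbers were given, so depth is unknown, and a difference in depth could move both called length and signal. Nothing in the labels says whether either library pooled several cultures.

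Regions sharing at least 1 bp were chained into loci with Python 3.11.15, pandas 2.3.3, numpy 2.4.6 and scipy 1.17.1, and figures were drawn with matplotlib 3.10.9. A locus mean was taken over all its bins in a library, and log2 ratios had no pseudocount. Shares have exact (Clopper-Pearson) and medians exact order-statistic 95% intervals, which cover counting or the spread over regions only. The steps were tested on simulated regions. Gene names follow the deposited list, which places a region within or beside a gene without naming exons or introns; of 283 symbols 268 (94.7%) matched RefSeq, whose hg38-based coordinates were used only for sequences. Loci were named by rule: the 8 highest signals, the 6 longest, the 8 largest and 8 smallest ratios among loci of median signal or more, the 5 highest signals of each single library, and up to 4 genes per list; families and loci beyond these were chosen after their values were seen. Alternatives were another overlap rule, stronger regions alone, regions inside genes, other names of zinc finger genes, the highest bin, a pseudocount of 1, centring, matched lengths, a 1.5-fold rule and sums over loci. The members, the lists and these rules were chosen with earlier results of these data known.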

Additional observations from a re-analysis of the deposited data

How the results depend on the processing

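Of 84 values recomputed under alternative settings, 72 kept within the interval or limit set for them. The ratio of covered length, 0.961 over regions, was above 1 with only regions inside a gene (1.08) and, in alternatives chosen after seeing the data, over loci without zinc finger regions (1.04) and over all loci with a member region (1.03). At or above the median signal, the share of regions in loci called in both libraries was 94.4% in control and 93.5% after CXCL12. The median signal was then 7.50 and 7.41, a rise that the choice of stronger regions brings by itself. With only regions inside a gene, 24.1% of control and 19.7% of CXCL12 regions touched a promoter as the deposited list counts it. The median log2 ratio was 0.098 by the highest bin. With a 1.5-fold rule 5 loci were higher and 3 lower. The cause of the shift by the highest bin was not tested. The 1.2-fold limit on length left 109 loci.

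No paired analysis was possible because each group has 1 library. Unknown depth and the missing replicate limit every comparison between the conditions: the treatment and the variation between preparations cannot be told apart.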
